A study of Mus musculus with 9 samples.

Results

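The mRNAs of 10 enzymes that clear or edit immunogenic nucleic acids were followed among the RNAs recovered with the sensor RIG-I: Adar, Trex1, Samhd1, Rnaseh2a, Rnaseh2b, Rnaseh2c, Skiv2l, Xrn1, Pnpt1 and Supv3l1. They were chosen by name, as genes whose loss is known to raise immunogenic RNA or DNA. All 10 were found by symbol among the 22396 genes of the deposited table, and all 10 passed the filter on low counts that left 12744 genes. RIG-I was immunoprecipitated through a FLAG tag from B16F10 cells, a mouse melanoma line, and the bound RNA was sequenced after depletion of ribosomal RNA (RIP-seq). The cells of every group stably expressed FLAG-tagged RIG-I from a lentiviral construct together with a lentiviral shRNA. The shRNA was a control (shCtr, labelled WT in genotype) or 1 of 2 shRNAs against OSGEP (shOSGEP#1 and shOSGEP#2, labelled KD OSGEP), with 3 replicates per group and 9 libraries in all.

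OSGEP is the enzyme of the KEOPS complex that places threonylcarbamoyl adenosine next to the anticodon of tRNAs. Mammalian cells carry sensors for double-stranded RNA, uncapped RNA and cytosolic DNA, and their own nucleic acids can trigger these sensors when they are not degraded or masked. ADAR edits adenosine to inosine in double-stranded RNA. TREX1 is a DNA exonuclease, SAMHD1 cleaves deoxynucleotide triphosphates, and RNase H2 removes ribonucleotides from RNA-DNA hybrids through its catalytic subunit Rnaseh2a and the accessory subunits Rnaseh2b and Rnaseh2c. In RNA decay, the helicase Skiv2l feeds RNA to the cytoplasmic exosome and Xrn1 digests decapped RNA, while Pnpt1 and the helicase Supv3l1 degrade RNA in mitochondria. Inherited loss of Adar, Trex1, Samhd1 or an RNase H2 subunit causes Aicardi-Goutières syndrome, an interferon disease.

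Levels are given in CPM (counts of a gene per 1000000 counts of its library) and stand for shares of what was pulled down with RIG-I. No input RNA was analysed here, so a larger amount of an mRNA in the cell and a larger fraction of it bound to RIG-I cannot be told apart. Counts are per gene and do not separate isoforms, such as the constitutive and the interferon-induced forms of Adar. Totals ran from 14914731 to 50224299 counts in 8 libraries, and the 2 shOSGEP#2 libraries among them had the lowest (25460689 and 14914731). The library of shOSGEP#2 replicate 2 held 568995 counts, 1.52% of the median of the other 8, and its median rank correlation with them across genes was 0.568, against at least 0.947 among the 8. It is therefore shown apart, and shOSGEP#2 has n = 2 unless stated. Osgep mRNA checked the labels, at 18.2 ± 2.32 CPM in shCtr (SD, n = 3), 2.15 ± 1.41 in shOSGEP#1 (n = 3) and 1.48 ± 1.98 in shOSGEP#2 (n = 2). Melanocyte markers such as Tyrp1, at 1227 to 3000 CPM, were present in each of the 8 libraries, while Krt5 of keratinocytes was at 0 in all 8. The mitochondrially encoded share of counts was 2.96% in shOSGEP#1 replicate 3 and 0.147% to 0.445% in the other 7 deep libraries.

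The 10 mRNAs were of middling to high abundance. Their counts in the deep libraries ran from 122 (Rnaseh2c, shOSGEP#2 replicate 3) to 5014 (Adar, shOSGEP#1 replicate 2). Per kilobase of exon, which allows levels of different genes to be compared, Rnaseh2c (19.8 ± 1.56 CPM per kb, SD, n = 3) and Skiv2l (18.7 ± 2.68) stood highest in shCtr. Rnaseh2b (13.5 ± 1.75) and Adar (13.4 ± 0.887) followed, then Trex1 (11.5 ± 0.783) and Samhd1 (11.1 ± 0.0564). Rnaseh2a had 9.30 ± 1.28 CPM per kb, and Supv3l1 (7.75 ± 0.715), Xrn1 (7.63 ± 0.795) and Pnpt1 (7.39 ± 0.307) were lowest. Neighbours in this order overlapped between libraries, except Skiv2l and Rnaseh2b, Adar and Trex1, Samhd1 and Rnaseh2a, and Rnaseh2a and Supv3l1. The order of the means differed in the knockdowns. Rnaseh2c had the highest mean of the 10 per kilobase in shCtr, the third in shOSGEP#1 (16.4 ± 3.90) and the seventh in shOSGEP#2 (9.56 ± 3.25). Skiv2l had the highest mean in both knockdowns, at 22.2 ± 3.25 and 27.8 ± 1.35 CPM per kb. Neighbours in the knockdown orders overlapped too, except Rnaseh2b and Xrn1 in shOSGEP#1. In shOSGEP#2 the exceptions were Skiv2l and Samhd1, and Adar and Trex1. Most of these places are therefore not resolved by the libraries.

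**Figure D1:**
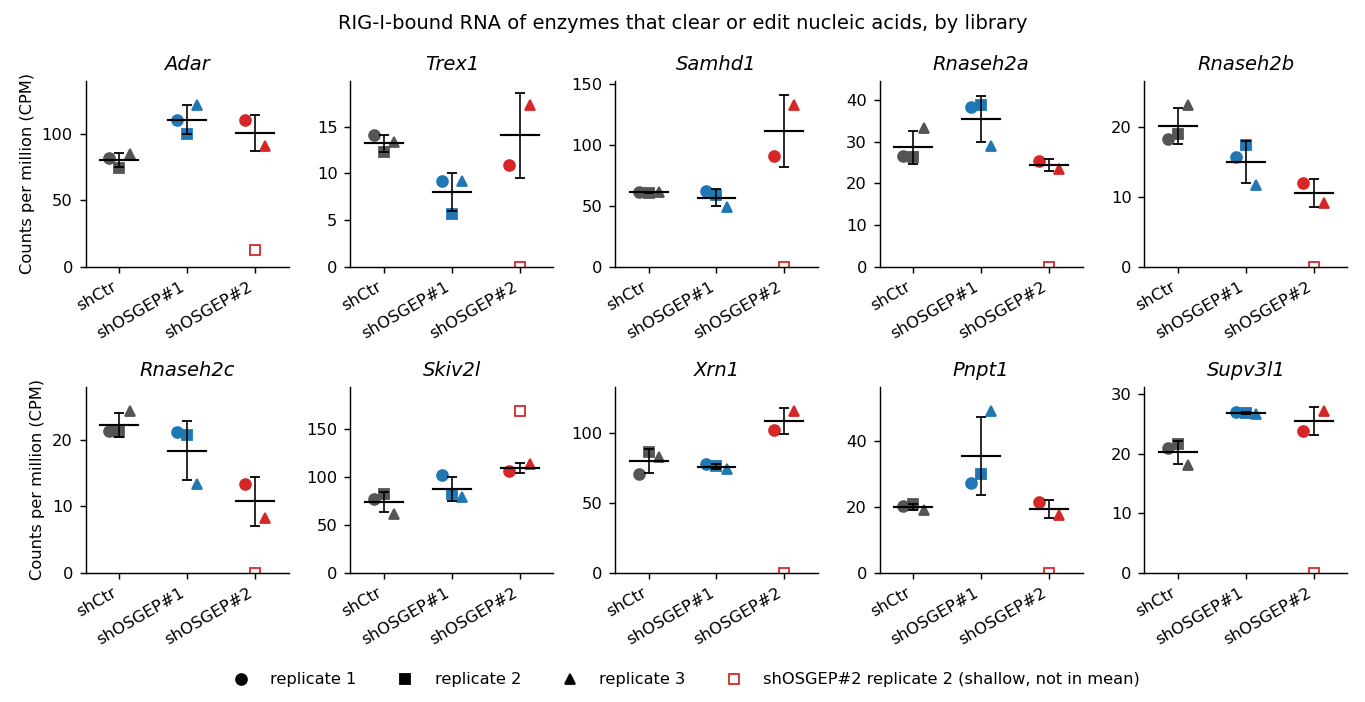
Level of each of the 10 mRNAs in every library, in CPM, by group; symbols give the replicate, bars the mean and SD of the deep libraries, and the open square the shallow library. Samhd1 is higher in both deep shOSGEP#2 libraries than in any other library, and the group means of Rnaseh2b and Rnaseh2c are lowest in shOSGEP#2.

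With edgeR's quasi-likelihood test and a threshold of 0.01 on the Benjamini-Hochberg adjusted p over 12744 genes, none of the 10 mRNAs was called for shOSGEP#1 against shCtr, where 9.67% of all genes tested were called. None was called for shOSGEP#2, with 9.55% of all genes, or for both shRNAs together, with 9.31%. Osgep, the target of the shRNAs, did not pass for shOSGEP#1 (log2 fold change -3.10, adjusted p = 0.0128 by edgeR). Nor did it pass for shOSGEP#2 (-3.84, adjusted p = 0.0150), but it did for both together (-3.47, adjusted p = 0.00406). The number of the 10 at an unadjusted p under 0.05 was 4 for shOSGEP#1, 5 for shOSGEP#2 and 4 for both, where the shares of all genes were 34.9%, 35.6% and 34.9%. DESeq2 called 1 for shOSGEP#1 (Pnpt1), 3 for shOSGEP#2 (Samhd1, Rnaseh2b and Rnaseh2c) and 1 for both (Rnaseh2b), where it called 20%, 19.4% and 19% of all genes. With edgeR at an adjusted p under 0.05 these counts were 1 (Pnpt1), 3 (the same as for DESeq2) and 2 (Rnaseh2b and Rnaseh2c), beside 21.9%, 21% and 21.2% of all genes. The median log2 fold change of the 10 was 0.07 for shOSGEP#1 and 0.11 for shOSGEP#2, and over all genes tested it was 0.0021 and -0.057. Comparisons with shCtr share the same 3 control libraries.

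**Figure D2:**
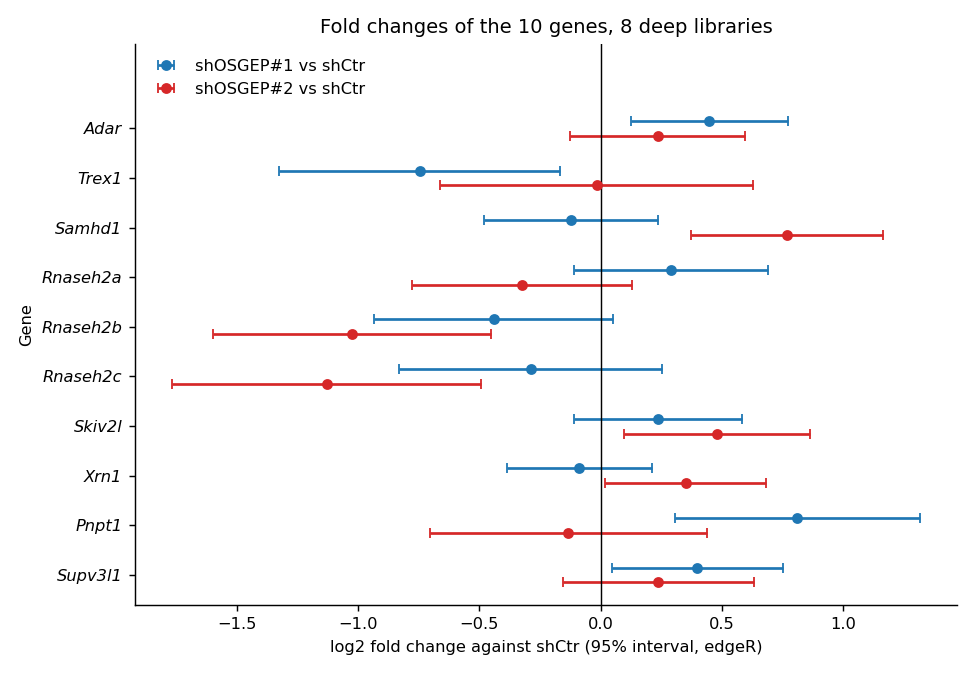
log2 fold change of each of the 10 mRNAs against shCtr with its 95% interval (edgeR, 8 libraries), shOSGEP#1 in blue and shOSGEP#2 in red. Intervals of Trex1 for shOSGEP#1 and of Rnaseh2b and Rnaseh2c for shOSGEP#2 lie below 0, those of Adar, Pnpt1 and Supv3l1 for shOSGEP#1 and of Samhd1, Skiv2l and Xrn1 for shOSGEP#2 above 0, and none of these passed an adjusted p of 0.01.

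Adar encodes the enzyme that edits adenosine to inosine in double-stranded RNA, a change that weakens pairing and keeps self RNA from the sensor MDA5. Its level was 82.0, 74.6 and 84.8 CPM in the shCtr libraries, 110.8, 99.8 and 121.7 in shOSGEP#1, and 110.6 and 91.1 in the deep shOSGEP#2 libraries. In CPM, which is scaled by library totals, every knockdown library was above every control library. The fit scaled with TMM normalization factors as well, 0.975 for shCtr replicate 3 and 1.07 for shOSGEP#2 replicate 3. With these factors the 2 libraries change order, so shOSGEP#2 and shCtr then overlap. The log2 fold change was 0.45 (SE 0.15, adjusted p = 0.050 by edgeR) for shOSGEP#1 and 0.23 (SE 0.16, adjusted p = 0.329) for shOSGEP#2. The latter was 0.050 without shOSGEP#2 replicate 1 and 0.39 without replicate 3. Groups did not overlap, over both shRNAs, for 20.9% of all genes. With the shallow library in the fit the shOSGEP#2 value turned negative, at -0.27, with only 7 counts of Adar there. In the GRCm38 annotation Adar shares exon sequence with Chrnb2 on the opposite strand, and the strand setting of the counting is not given in the sources used here.

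Promoter sequence was taken for 8 of the 10 genes, all but Rnaseh2b and Skiv2l, in 11 windows of 300 bases (250 before to 50 after a transcription start, RefSeq, GRCm38.p6). None of the 11 held a pair of GAAA repeats with any 2 bases between them, the core of the interferon-stimulated response element, read on both strands. That motif, a strict form of the core, was in 3.43% of 32817 windows of all genes. It was in only 7 of 12 windows of interferon-stimulated reference genes, so its absence does not show that a window lacks the element. A shorter run, GAAACGAAA, with 1 base between the GAAA repeats, was in 1 Adar window and in the Pnpt1 window. It was seen on reading the windows and so chosen after the sequences were known. The run was also in 1 of 12 windows of the reference genes (Xaf1) and in 0.189% of all windows. TTCNNNGAA, a palindrome of cytokine-responsive promoters, was in that Adar window, in Samhd1 and in Rnaseh2a, and in 8.29% of all windows. The windows of the 2 enzymes with the shared run and of Samhd1, the mRNA called between the shRNAs, read as follows, with GAAACGAAA and TTCNNNGAA in capitals. In Adar they overlap by 3 bases and form 1 block.
Adar (chr3:89730468-89730767, plus strand): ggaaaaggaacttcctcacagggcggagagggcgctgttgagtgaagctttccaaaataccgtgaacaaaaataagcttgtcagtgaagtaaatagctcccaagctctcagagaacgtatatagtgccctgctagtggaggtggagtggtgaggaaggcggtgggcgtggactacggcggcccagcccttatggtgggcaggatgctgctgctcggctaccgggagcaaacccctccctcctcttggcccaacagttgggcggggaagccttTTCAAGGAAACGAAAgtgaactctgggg
Pnpt1 (chr11:29130494-29130793, plus strand): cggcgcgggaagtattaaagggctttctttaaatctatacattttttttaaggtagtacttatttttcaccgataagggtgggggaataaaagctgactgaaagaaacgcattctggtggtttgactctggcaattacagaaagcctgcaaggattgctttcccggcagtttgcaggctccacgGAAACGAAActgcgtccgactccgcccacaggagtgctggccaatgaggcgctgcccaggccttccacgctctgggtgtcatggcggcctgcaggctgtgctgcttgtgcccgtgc
Samhd1 (chr2:157135047-157135346, minus strand): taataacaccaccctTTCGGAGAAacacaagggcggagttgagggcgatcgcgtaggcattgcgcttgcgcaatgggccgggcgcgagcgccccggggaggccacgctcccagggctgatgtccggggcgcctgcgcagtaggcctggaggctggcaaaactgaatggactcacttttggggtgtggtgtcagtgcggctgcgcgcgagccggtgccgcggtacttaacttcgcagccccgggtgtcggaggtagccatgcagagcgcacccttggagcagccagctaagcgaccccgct
Counted from the start site, the Adar block began at base +23, the Pnpt1 run at base -66 and the Samhd1 palindrome at base -235. These matches describe the letters of the windows only.

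Trex1, the main exonuclease for cytosolic DNA, had the lowest mean of the 10 over the 8 deep libraries, 11.5 CPM. It was at 14.1, 12.3 and 13.3 CPM in shCtr, at 9.15, 5.59 and 9.19 in shOSGEP#1, and at 10.8 and 17.3 in shOSGEP#2. All shOSGEP#1 libraries lay below all controls, and the shOSGEP#2 libraries fell on either side of them. This gave a log2 fold change of -0.75 (SE 0.26, adjusted p = 0.0648) for shOSGEP#1 and -0.02 (SE 0.29, adjusted p = 0.975) for shOSGEP#2, and the difference between the shRNAs was 0.73 (SE 0.29, adjusted p = 0.0941). The interval for shOSGEP#2 ran from -0.66 to 0.63.

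Samhd1, which limits the deoxynucleotide supply for reverse transcription and also acts at stalled replication forks, was the member with a call between the shRNAs. Its level was 61.0, 60.8 and 61.4 CPM in shCtr, 62.3, 58.7 and 48.9 in shOSGEP#1, and 90.6 and 132.6 in shOSGEP#2. The shCtr libraries had a coefficient of variation of 0.508%, and both shOSGEP#2 libraries were above all others. The log2 fold change was -0.12 (SE 0.16, adjusted p = 0.647) for shOSGEP#1 and 0.77 (SE 0.18, adjusted p = 0.0122) for shOSGEP#2. The level in shOSGEP#2 was 1.85 times that in shOSGEP#1 (log2 fold change 0.89, SE 0.18, adjusted p = 0.00525 by edgeR). It was the 1 of the 10 that was called between the shRNAs, where 10.8% of all genes were (6.23% higher in shOSGEP#2). This call was lost without shCtr replicate 2 (adjusted p = 0.0124), shOSGEP#1 replicate 2 (0.0173), shOSGEP#1 replicate 3 (0.0141) or shOSGEP#2 replicate 3 (0.0547), with a fit of only the 2 shOSGEP groups (0.0205), and with all 9 libraries (0.927). Against shCtr, shOSGEP#2 passed for Samhd1 without shOSGEP#2 replicate 1 (adjusted p = 0.00552) or shOSGEP#1 replicate 3 (0.00849), where Rnaseh2c passed as well (0.00863 and 0.00946). In the first of these fits shOSGEP#2 had 1 library, which was assumed to vary like the other groups.

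RNase H2 needs its 3 subunits together for a stable enzyme, and the mRNAs of both accessory subunits were lower in every knockdown library than in every control, which that of the catalytic subunit was not. Such a lower level without overlap was seen in 8.99% of all genes. Rnaseh2a, the catalytic subunit, was at 26.5, 26.3 and 33.2 CPM in shCtr, 38.3, 38.8 and 29.0 in shOSGEP#1, and 25.4 and 23.4 in shOSGEP#2. Its log2 fold changes were 0.29 (SE 0.18, adjusted p = 0.287) and -0.33 (SE 0.21, adjusted p = 0.284). The shOSGEP#2 libraries lay below the controls, and the shOSGEP#1 libraries overlapped them.

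Rnaseh2b, an accessory subunit that links the complex to the replication clamp PCNA, was at 18.3, 19.1 and 23.2 CPM in shCtr. It was at 15.8, 17.5 and 11.7 CPM in shOSGEP#1 and at 11.9 and 9.12 in shOSGEP#2. Rnaseh2c, the other accessory subunit, was at 21.3, 21.2 and 24.3 CPM in shCtr, at 21.2, 20.7 and 13.4 in shOSGEP#1 and at 13.4 and 8.18 in shOSGEP#2. For both genes every knockdown library was below every control library, in Rnaseh2c of shOSGEP#1 by a narrow margin. The log2 fold change of Rnaseh2b was -0.44 (SE 0.22, adjusted p = 0.187) for shOSGEP#1, -1.03 (SE 0.26, adjusted p = 0.0181) for shOSGEP#2 and -0.73 (SE 0.20, adjusted p = 0.0238) for both. For Rnaseh2c it was -0.29 (SE 0.25, adjusted p = 0.446), -1.13 (SE 0.29, adjusted p = 0.0185) and -0.71 (SE 0.22, adjusted p = 0.0415). DESeq2 gave adjusted p-values of 0.00202 and 0.00157 for shOSGEP#2, with similar fold changes (-1.01 and -1.11). Without shOSGEP#1 replicate 3, the library with the mitochondrial share of 2.96%, the log2 fold changes for shOSGEP#1 were -0.29 for Rnaseh2b and -0.10 for Rnaseh2c.

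Within a library, the counts of the accessory subunits can be set against those of the catalytic subunit without any scaling between libraries. Rnaseh2b had 0.690, 0.725 and 0.698 counts per count of Rnaseh2a in shCtr, 0.412, 0.451 and 0.403 in shOSGEP#1, and 0.470 and 0.390 in shOSGEP#2. Rnaseh2c had 0.804, 0.807 and 0.732 in shCtr, 0.552, 0.534 and 0.461 in shOSGEP#1, and 0.526 and 0.350 in shOSGEP#2. All 5 knockdown libraries lay below all 3 controls in both ratios. Rnaseh2c per Rnaseh2b, at 1.05 to 1.17 in shCtr, overlapped with both knockdowns (1.14 to 1.34 and 0.897 to 1.12). The ratios were formed after the levels had been seen and have no test. Both ratios to Rnaseh2a share its counts, and its log2 fold change was 0.29 for shOSGEP#1 and -0.33 for shOSGEP#2. Rnaseh2a has 3.082 kb of exon, Rnaseh2b 1.494 kb and Rnaseh2c 1.126 kb. Fold changes varied with exon length, as given below, and the part of length in the ratios was not tested. Of the 12743 other genes tested, 5.92% had a ratio to Rnaseh2a that was lower in the 5 libraries without overlap. Rnaseh2a shares exon sequence with Gm49661 on its own strand and with Prdx2 on the other, and Rnaseh2c with Kat5 on the other.

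**Figure D3:**
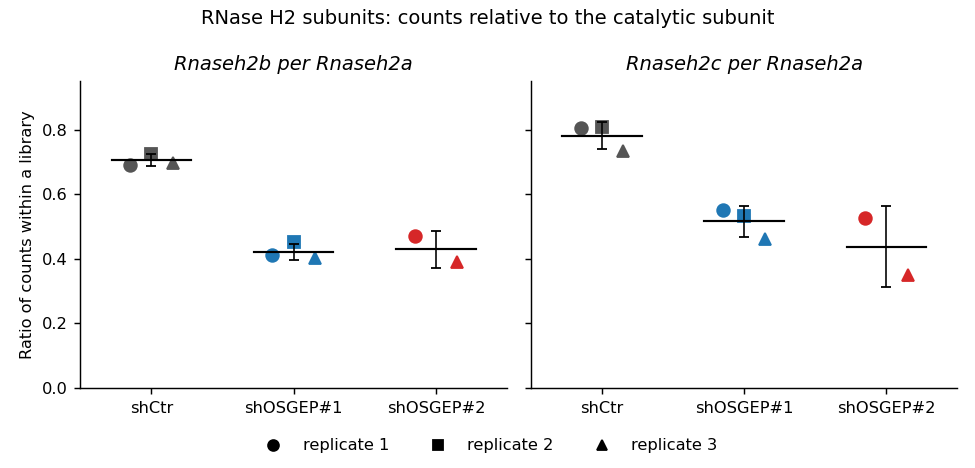
Counts of the accessory RNase H2 subunits Rnaseh2b (left) and Rnaseh2c (right) per count of the catalytic subunit Rnaseh2a within each deep library, with the mean and SD per group. The shCtr libraries lie at 0.690 to 0.725 and 0.732 to 0.807, above all 5 shOSGEP libraries in both panels.

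Skiv2l is the helicase of the Ski complex, which threads RNA into the exosome. Its level was 77.6, 82.0 and 61.9 CPM in shCtr, 102.5, 82.0 and 78.9 in shOSGEP#1, and 106.1 and 113.6 in shOSGEP#2. Both shOSGEP#2 libraries were above all 6 others, and the shOSGEP#1 libraries overlapped with shCtr. In the fit its log2 fold change was 0.24 (SE 0.16, adjusted p = 0.317) for shOSGEP#1 and 0.48 (SE 0.17, adjusted p = 0.0743) for shOSGEP#2.

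Xrn1, the main cytoplasmic exonuclease for decapped mRNA, was at 70.6, 86.3 and 83.2 CPM in shCtr, at 77.6, 76.2 and 74.2 in shOSGEP#1 and at 102.5 and 115.7 in shOSGEP#2. It was thus within the control range in shOSGEP#1 and above it in both shOSGEP#2 libraries. The log2 fold change was -0.09 (SE 0.14, adjusted p = 0.698) for shOSGEP#1, with an interval from -0.39 to 0.21, and 0.35 (SE 0.15, adjusted p = 0.122) for shOSGEP#2. The latter was -0.20 with the shallow library, which had no count of Xrn1. Xrn1 shares exon sequence with the antisense gene C78334.

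Pnpt1 encodes the mitochondrial polynucleotide phosphorylase, which degrades RNA and keeps mitochondrial double-stranded RNA from reaching the cytosol. Its level was 20.2, 20.8 and 19.1 CPM in shCtr, 27.4, 30.0 and 48.9 in shOSGEP#1, and 21.4 and 17.4 in shOSGEP#2. All shOSGEP#1 libraries exceeded all other libraries, with replicate 3, the library with the mitochondrial share of 2.96%, the highest. The log2 fold change was 0.81 (SE 0.23, adjusted p = 0.0287) for shOSGEP#1 and -0.13 (SE 0.26, adjusted p = 0.745) for shOSGEP#2. Between the shRNAs it was -0.94 (SE 0.27, adjusted p = 0.0261 by edgeR and 0.00505 by DESeq2), short of the threshold with edgeR. DESeq2 called 20.9% of all genes in that comparison, Samhd1 and Pnpt1 among them. Without shOSGEP#1 replicate 3 the log2 fold change for shOSGEP#1 was 0.51. The part of the mitochondrial share in this was not tested.

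Supv3l1, the helicase that works with Pnpt1, was at 20.9, 21.6 and 18.1 CPM in shCtr, at 27.0, 26.8 and 26.7 in shOSGEP#1 and at 23.8 and 27.1 in shOSGEP#2. Every knockdown library was above every control library, and the shOSGEP#1 libraries were nearly equal. Fitted log2 fold changes were 0.40 (SE 0.16, adjusted p = 0.101) for shOSGEP#1 and 0.24 (SE 0.18, adjusted p = 0.368) for shOSGEP#2. Supv3l1 had 1.04, 1.04 and 0.946 counts per count of Pnpt1 in shCtr, 0.987, 0.894 and 0.546 in shOSGEP#1, and 1.12 and 1.55 in shOSGEP#2. The ratio was lowest in shOSGEP#1 replicate 3, and shOSGEP#1 overlapped with shCtr. Supv3l1 shares exon sequence with 4930507D05Rik on the opposite strand.

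Overlap was judged on CPM scaled by library totals, without the TMM factors of the fit. By overlap alone, 3 of the 10 were higher (Adar, Pnpt1, Supv3l1) and 3 lower (Trex1, Rnaseh2b, Rnaseh2c) in all shOSGEP#1 libraries than in all controls. In that comparison 45.3% of all genes did not overlap (23.1% higher and 22.2% lower). For shOSGEP#2, with 2 libraries, 5 were higher (Adar, Samhd1, Skiv2l, Xrn1, Supv3l1) and 3 lower (the RNase H2 subunits), where 52.3% of all genes did not overlap (28.7% higher and 23.6% lower). Over all 5 knockdown libraries, 2 were higher (Adar, Supv3l1) and 2 lower (Rnaseh2b, Rnaseh2c), beside 11.9% and 8.99% of all genes. Between the shRNAs, 4 were higher in shOSGEP#2 (Trex1, Samhd1, Skiv2l, Xrn1) and 3 lower (Rnaseh2a, Rnaseh2c, Pnpt1), beside 49.6% of all genes (27.1% higher and 22.5% lower). The margins of Rnaseh2c were narrow. Between the shRNAs it had 13.354 CPM in shOSGEP#2 replicate 1 and 13.356 in shOSGEP#1 replicate 3. Against the controls it had 21.19 CPM in shOSGEP#1 replicate 1 and 21.24 in shCtr replicate 2. At an unadjusted p under 0.05 between the shRNAs there were 7 of the 10, beside 37.1% of all genes, and at an adjusted p under 0.05 there were 2 (Samhd1 and Pnpt1), beside 23.2%.

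Fold changes in these libraries varied with the exon length of the gene, and Rnaseh2c, Trex1 and Rnaseh2b have the least exon sequence of the 10. For shOSGEP#2 the median log2 fold change was -0.34 over the 565 genes with under 1 kb of exon and 0.17 over the 924 genes above 8 kb. For shOSGEP#1 these medians were -0.18 and 0.16. Rnaseh2c has 1.126 kb of exon and Rnaseh2b 1.494 kb. Set against genes within 1.25-fold of their length, Rnaseh2c was lower by a log2 difference of -0.84 for shOSGEP#2 and Rnaseh2b by -0.80, at percentiles 10.6 and 12.8. Samhd1 (5.497 kb) was higher than genes of like length by 0.72, at percentile 82.5, and Xrn1 (10.481 kb) by 0.19. For shOSGEP#1, Rnaseh2c differed from genes of like length by only -0.16 (percentile 37.6) and Rnaseh2b by -0.37 (percentile 26.1). In that comparison Trex1 (1.147 kb) differed by -0.61 (percentile 14.3) and Pnpt1 (2.707 kb) by 0.84 (percentile 88.2). The part of length in these differences was not tested.

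**Figure D4:**
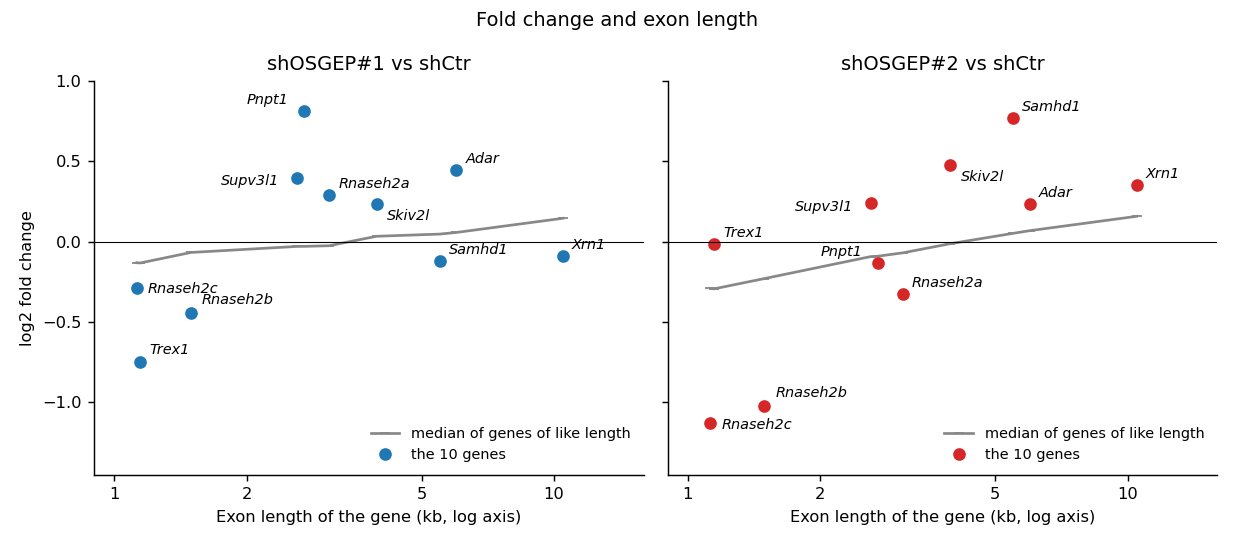
log2 fold change against shCtr and exon length (kb, log axis) of the 10 mRNAs, for shOSGEP#1 (left) and shOSGEP#2 (right); the grey line joins the median log2 fold change of genes of like length. In shOSGEP#2, Rnaseh2b and Rnaseh2c lie 0.80 and 0.84 below that line and Samhd1 0.72 above it.

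In the shallow library, shOSGEP#2 replicate 2, 8 of the 10 mRNAs had no count. The 3 counts that a count of 0 allows correspond to 5.27 CPM there, for counting error only. From the mean of the 2 deep libraries of the group, 57.4 counts were expected for Adar and 7 were found. No count was found for Samhd1, with 63.5 expected, or Xrn1, with 62.1 expected. Skiv2l had 96 counts with 62.5 expected, a level of 168.7 CPM and the highest of any library. Such swings were not particular to the 10: of the 1797 genes with 50 to 100 expected counts, 38.7% had none and 31.2% had more than expected. With all 9 libraries in the fit the common dispersion was 0.420, against 0.0692 with 8. edgeR then called none of the 10 and no other gene in any of the 4 comparisons.

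**Figure D5:**
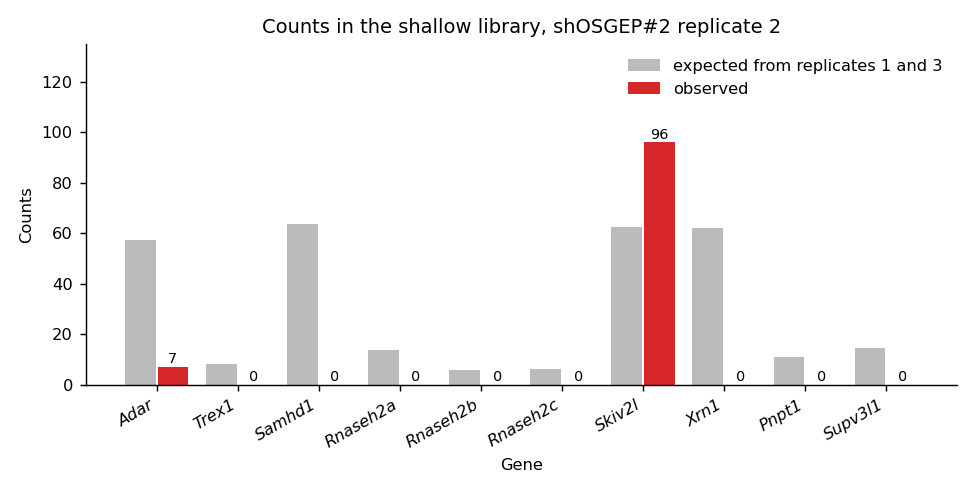
Counts of the 10 mRNAs in the shallow library, shOSGEP#2 replicate 2 (red, with the number above), beside the counts expected at its depth from replicates 1 and 3 (grey). Only Adar (7) and Skiv2l (96) have counts.

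Partner and pathway genes of the 10 were described from 9 lists. The counts below stand beside 9.67% of all genes tested called for shOSGEP#1 and 9.55% for shOSGEP#2 by edgeR. At an unadjusted p under 0.05 the shares of all genes were 34.9% and 35.6%. Median log2 fold changes over all genes were 0.0021 and -0.057. In the list of RNA editing and masking enzymes, 0 of 12 genes passed for shOSGEP#1 and 0 for shOSGEP#2 by edgeR (5 and 6 at an unadjusted p under 0.05), with median log2 fold changes of -0.11 and -0.36. Among enzymes of DNA clearance and RNA-DNA hybrids, 1 of 11 genes tested was higher for shOSGEP#1 and none passed for shOSGEP#2, with medians of 0.04 and -0.07. The 1, named after its values were seen, was the lysosomal DNase gene Dnase2a (12.8 ± 0.659 CPM in shCtr, 26.5 ± 4.58 in shOSGEP#1, adjusted p = 0.00896). Of 15 genes tested in a list of the Ski complex, the cytoplasmic exosome and related factors, 2 were higher for shOSGEP#1. None passed for shOSGEP#2, and the medians were 0.14 and -0.0038. The 2 were Dis3l2 (23.2 ± 2.11 CPM in shCtr, 47.2 ± 5.22 in shOSGEP#1, n = 3 each, adjusted p = 0.00261) and the exosome core subunit Exosc5 (31.9 ± 1.38 and 57.6 ± 10.1 CPM, adjusted p = 0.00538). Dis3l2 encodes an exonuclease that is not a subunit of either complex. The partners of Skiv2l in the Ski complex did not pass, with log2 fold changes of 0.10 and 0.02 for Ttc37 and -0.11 and -0.44 for Wdr61.

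In nuclear RNA decay, 1 of 12 genes was higher for shOSGEP#1 and 1 lower for shOSGEP#2, with medians of 0.08 and -0.27. The first was Zfc3h1, which links polyadenylated nuclear RNA to the exosome (32.4 ± 0.677 CPM in shCtr and 61.9 ± 10.0 in shOSGEP#1, adjusted p = 0.00713). The second was Tent4b, a poly(A) polymerase that tags RNA for decay, at 72.1 ± 5.05 CPM in shCtr and 30.8 ± 0.397 in shOSGEP#2 (n = 2, adjusted p = 0.00034). Among 24 genes of decapping and the decay that Xrn1 completes, none passed for shOSGEP#1 (4 at an unadjusted p under 0.05) and 1 was lower for shOSGEP#2, the scavenger decapping enzyme gene Dcps (46.5 ± 3.37 and 26.3 ± 0.248 CPM, adjusted p = 0.00876). The medians were 0.01 and -0.30. Of 21 genes of mitochondrial RNA turnover and membrane release, none passed for shOSGEP#1 (7 at an unadjusted p under 0.05) and Vdac2, an outer membrane channel, was lower for shOSGEP#2 (260 ± 33.9 and 139 ± 19.3 CPM, adjusted p = 0.00256), with medians of -0.08 and -0.33.

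Among 17 genes tested for handling of double-stranded RNA and other RNases, 1 was higher and 2 lower for either shRNA, with medians of -0.14 and -0.14. Stau2, which binds double-stranded RNA, fell from 28.2 ± 1.41 CPM in shCtr to 11.0 ± 0.761 in shOSGEP#1 and 9.87 ± 0.873 in shOSGEP#2 (adjusted p = 0.000767 and 0.000571). Ilf2, which codes for a nuclear RNA-binding factor, fell from 121.5 ± 11.5 CPM to 75.7 ± 8.47 and 73.9 ± 5.27 (adjusted p = 0.00631 and 0.00562). Ern1, the endoplasmic reticulum stress sensor with an RNase domain, rose from 40.2 ± 0.991 CPM to 78.9 ± 19.8 and 108.7 ± 24.2 (adjusted p = 0.00593 and 0.00159). Of 12 sensor genes tested, none passed for shOSGEP#1 (1 at an unadjusted p under 0.05) and 1 rose for shOSGEP#2, with medians of 0.01 and 0.22. This was Dhx58, the RIG-I relative LGP2, at 11.8 ± 0.906 CPM in shCtr, 10.8 ± 0.716 in shOSGEP#1 and 44.2 ± 12.3 in shOSGEP#2 (adjusted p = 0.000405).

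Interferon-stimulated reference genes, 14 in all, had medians of 0.47 for shOSGEP#1 and 0.37 for shOSGEP#2, and none was called lower. Of the 14, 12 had a positive log2 fold change for shOSGEP#1 and 13 for shOSGEP#2. Those called higher for shOSGEP#1 included Cxcl10 (adjusted p = 0.00174), Ifit1 (0.00213), Xaf1 (0.00492) and Ifit3 (0.00659). Cxcl10, a chemokine gene, was at 15.8 ± 2.47 CPM in shCtr, 77.5 ± 40.3 in shOSGEP#1 and 20.5 ± 9.91 in shOSGEP#2. It was lower in shOSGEP#2 than in shOSGEP#1 (log2 fold change -2.02, adjusted p = 0.00572 by edgeR). Mx1 went the other way, with -1.76 for shOSGEP#1 (adjusted p = 0.0109 by edgeR) and 0.77 for shOSGEP#2. Its level was higher in shOSGEP#2 than in shOSGEP#1 (2.53, adjusted p = 0.00225 by edgeR). Ifit1 and Ifit3, which code for antiviral RNA-binding proteins, had log2 fold changes of 1.31 and 1.85 for shOSGEP#1, and of 0.27 and 0.40 for shOSGEP#2. Xaf1 had 1.11 and 0.33. Of the 10 enzymes, Adar and Pnpt1, both known interferon-inducible genes, had 0.45 and 0.81 for shOSGEP#1 and 0.23 and -0.13 for shOSGEP#2. Samhd1, inducible in many cells, had -0.12 and 0.77. Trex1 had -0.75 and -0.02. Among all 10 enzymes, 5 had a positive log2 fold change for shOSGEP#1 and 5 for shOSGEP#2. None of the 10 passed an adjusted p of 0.01 for either shRNA by edgeR. RIG-I itself (Ddx58), whose reads can come from the construct as well as the gene, was at 214 ± 55.5 CPM in shCtr, 258 ± 60.3 in shOSGEP#1 and 415 ± 19.7 in shOSGEP#2.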

How the data were processed

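RIP-seq of FLAG-tagged RIG-I was analysed in 9 B16F10 libraries, grouped by the sample labels, which give the shRNA and the replicate number. The authors' methods describe replicates as independent experiments. The authors depleted ribosomal RNA, trimmed reads with Trim Galore, aligned them to GRCm39 with STAR, quantified genes with Salmon and deposited counts as whole numbers, neither normalized nor pooled. Since Salmon's estimates can be fractional, rounding before deposit is likely. The strand setting of the quantification is not given in the sources used here.

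Of 22396 identifiers, 22237 were matched to symbols. Tests used edgeR 4.0.16 under R 4.3.3, with TMM, filterByExpr, the quasi-likelihood test with a coefficient per group, 8 libraries without shOSGEP#2 replicate 2, no covariate, and a Benjamini-Hochberg adjusted p under 0.01 over 12744 genes. The SE of a log2 fold change is its size over the root of the F statistic, and intervals are 95%. CPM used library totals. DESeq2 1.42.0, RLE, library totals, other filters, a threshold of 0.05, a replicate block, fits without the third group, all 9 libraries and leaving out each library were alternatives, while DESeq2 and the block on all 9 libraries were added after the data were seen. In simulated counts with a dispersion of 0.07, 200 of 12592 genes tested had a log2 difference of 2. Of these, edgeR found 200 in the shOSGEP#1 comparison, 190 in the shOSGEP#2 one and 200 in the combined one. Smaller differences were not simulated. The largest log2 fold change against shCtr among the enzyme mRNAs followed was -1.13 (Rnaseh2c, shOSGEP#2, 8 libraries). The simulation therefore cannot tell how often changes of the size seen in these mRNAs would be called.

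Totals were 14914731 to 50224299 counts in 8 libraries, where 3 counts are 0.0597 to 0.201 CPM. Floors cover counting error only. Exon lengths came from GENCODE annotation of GRCm38, matched by identifier, and were known for 99.8% of genes tested. Promoter windows came from RefSeq. Levels, ratios and figures came from Python 3.11.15 with pandas 2.3.3, numpy 2.4.6 and matplotlib 3.10.9. The 10 genes and all lists were chosen with earlier results of these data known. Genes named from the lists, at most 15, are those past the threshold for either shRNA or both, by the smallest unadjusted p. 1 item that met this rule is not reported here. Ttc37, Wdr61 and Ddx58 were named in addition, as partners and as the bait. Mx1 was named as the interferon-stimulated reference gene that fell most for shOSGEP#1.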

Additional observations from a re-analysis of the deposited data

Results flagged for a closer look

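Samhd1 differed between the 2 shRNAs against the same gene, with a log2 fold change of 0.89 for shOSGEP#2 against shOSGEP#1 (adjusted p = 0.00525 by edgeR): both deep shOSGEP#2 libraries were above the control range and 2 of 3 shOSGEP#1 libraries below it. The call was lost in a fit of only the 2 shOSGEP groups (adjusted p = 0.0205) and kept in 4 of 8 fits that left out 1 library (adjusted p = 0.00281 to 0.0547). Skiv2l had 168.7 CPM in shOSGEP#2 replicate 2, the library left out of the tests, above its level in every control library and 2.29 times the shCtr mean.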

How the results depend on the processing

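Counts below are for shOSGEP#1, shOSGEP#2, both shRNAs and shOSGEP#2 against shOSGEP#1, in this order, and the cause of a change was not tested where the setting does not show it. Genes called were 1232, 1217, 1186 and 1375 as reported, 2419, 2405, 2365 and 2592 by DESeq2, 2797, 2674, 2707 and 2952 at an adjusted p under 0.05, and 0 in each with all 9 libraries, with or without the replicate block (DESeq2 on all 9: 122, 347, 178 and 412). Only the 2 shOSGEP groups in the fit gave 737 for the last. Leaving out 1 library gave 318 to 1458, 518 to 1471, 258 to 1351 and 743 to 1504, lowest without shCtr replicate 2 in the first 3 and without shOSGEP#2 replicate 3 in the last. Among the 10 mRNAs, 0, 0, 0 and 1 were called as reported, 1, 3, 1 and 2 by DESeq2, and 1, 3, 2 and 2 at 0.05. For shOSGEP#2 there was 1 with library totals or with at least 10 counts in every library (Samhd1), 2 without a filter (Samhd1 and Rnaseh2c) and 0 to 2 without 1 library. Between the shRNAs there were 0 with all 9 libraries (edgeR or DESeq2, with or without the block), with only the groups compared or with the block, and 0 to 1 without 1 library. Replicate numbers are shared between groups, but same-numbered libraries deviated together only weakly (correlations -0.0034 to 0.180 in 7 pairs, mean 0.0809). The mean was -0.0398 in 14 pairs of different number (-0.180 to 0.144). Same-numbered libraries were not taken as pairs. The replicate block on 8 libraries called 1380, 1238, 1341 and 1393 genes and none of the 10 (Samhd1 between the shRNAs 0.89, adjusted p = 0.0113), and changed no other call among them. Directions reversed as follows, none past the threshold. For shOSGEP#2 with all 9 libraries, log2 fold changes were -0.27 (Adar), -0.20 (Xrn1) and -0.27 (Supv3l1) by edgeR, -0.31, -0.26 and -0.31 by DESeq2, and -0.58, -0.57 and -0.59 with the block, where Samhd1 was -0.17. Trex1 for shOSGEP#2 was 0.0036 by DESeq2, 0.0042 with RLE, 0.084 with library totals, 0.0024 with at least 10 counts in every library, 0.0041 with only the groups compared, and -0.35 to 0.26 without 1 library. Pnpt1 for shOSGEP#2 was -0.33 to 0.030 without 1 library. For both shRNAs, Rnaseh2a was 0.036 with library totals and -0.078 to 0.11 without 1 library, and Xrn1 was -0.15 with all 9 libraries and -0.16 by DESeq2 on them. With the block on all 9, the values for both were -0.076 (Adar), -0.14 (Samhd1), -0.34 (Xrn1), -0.13 (Pnpt1) and -0.11 (Supv3l1). Between the shRNAs, Xrn1 was -0.11 with all 9 libraries, -0.19 by DESeq2 on them and -0.46 with the block, where Trex1 was -0.047 and Samhd1 -0.060. Depth was lowest by far in the shallow library. Among the other 8 it was lowest in shOSGEP#2 replicates 1 and 3, at 68.0% and 39.8% of their median. Replicate 3 had 11733 genes detected, the fewest of the 8. The part of depth in the shOSGEP#2 results was not tested.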
